A study of Xenopus laevis with 7 samples.

Results

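The forkhead (fox) transcription factor genes were taken as the transcripts of the expression table whose human match is named FOX with a letter from A to S and a number, or whose frog symbol is fox with a letter and a number. This gave 81 of 44421 transcripts, 80 of them by the human match, 67 by the frog symbol and 66 by both. They covered 18 subfamilies and 44 gene names, mostly as the L and S copies that the allotetraploid genome of Xenopus laevis holds. The name was the frog symbol or, without one, the human match, so foxl1 and FOXL1 count apart. The member that entered by its frog symbol alone was foxr1.L, whose human match was TTC36.

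Forkhead genes encode transcription factors that bind DNA through a winged-helix domain and are sorted by letter into subfamilies. Several belong to the earliest regulators of the vertebrate body plan: FoxA proteins open closed chromatin in endoderm and axial midline tissue, Foxh1 carries the Nodal signal from Smad proteins to DNA, and Foxi1 directs surface ectoderm. In the frog gastrula, foxa4 and foxd3 are known as genes of the Spemann organizer, the dorsal tissue that patterns the body axis.

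All embryos were wild type, from frogs of the Nasco background, and were at stage 10.5, the early gastrula, when the blastopore lip has formed. One group was dorsal lips, which contain the organizer (3 samples), another was ventral lips from the opposite side (3 samples), and whole embryos gave 1 sample; the labels name no other difference between them. Poly(A) RNA was sequenced, and the levels are RPKM, reads scaled to transcript length and to the mapped reads of the library. Comparisons between transcripts, and ranks and sums of them, therefore rest on the lengths of the gene models. Samples with the same number come from the same experiment, and the whole embryos from experiment 1. Since no label ties the replicates to separate clutches, the p-values speak of the spread among these samples alone, and that spread may be technical.

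The libraries held 26438048 to 37999134 reads on the listed transcripts. Of 16 tested transcripts of organizer marker genes such as chrd and gsc, 11 were higher in dorsal lips, and of 10 tested transcripts of ventral genes such as szl and bambi, 4 were higher in ventral lips, with 0 in the opposite direction in each list (limma adjusted p of 0.05, 0 members of either list also at an unadjusted p under 0.05 in that direction). The lips of experiment 1 lay apart from those of experiments 2 and 3 on the first principal component, which held 75.9% of the variance, and side of the embryo followed on the second with 18.8%. Per the file headers, experiments 2 and 3 also shared a sequencing lane, so experiment and lane cannot be told apart. Each test was therefore run both without a block and with a block for the experiment, which compares the lips within experiments.

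A single gene made up most of the forkhead RNA of the dorsal lip. The 81 transcripts summed to 789, 778 and 787 RPKM in dorsal lips 1 to 3, to 338, 339 and 311 RPKM in ventral lips 1 to 3 and to 510 RPKM in the whole embryo. Both copies of foxa4 together held 81.6%, 72.1% and 75.8% of that sum in the dorsal lips, 60.2%, 21.4% and 29.3% in the ventral lips and 76.2% in the whole embryo. Without foxa4 the rest summed to 145, 217 and 191 RPKM in dorsal and 135, 267 and 220 RPKM in ventral lips, ranges that overlap. In ventral lips 2 and 3 the foxh1 copies held 20.2% and 18.0% and the foxi2 copies 19.6% and 14.5% of the forkhead sum.

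**Figure D1:**
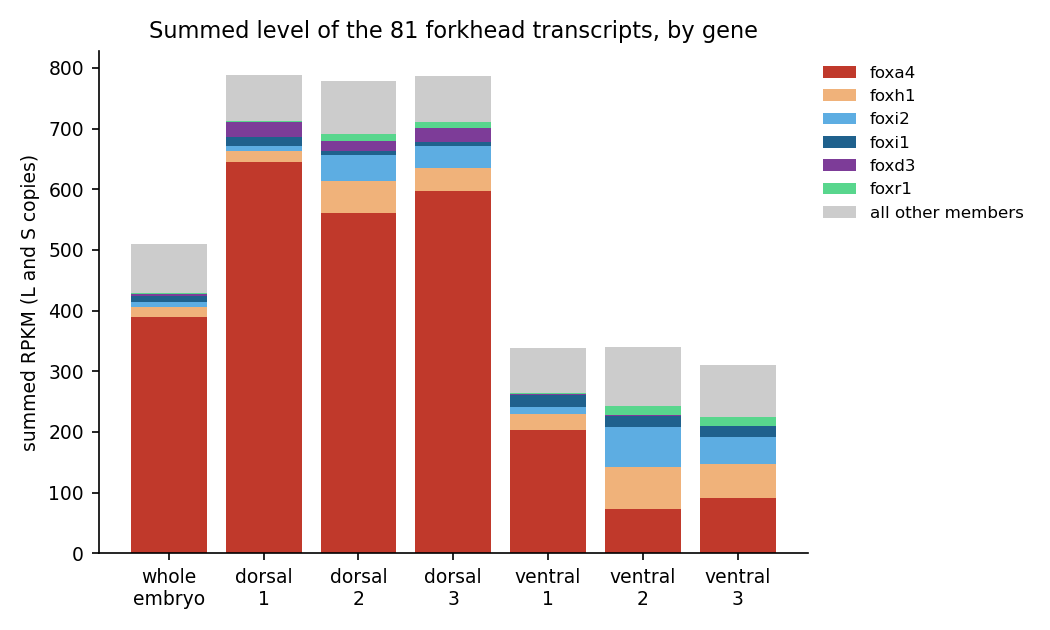
Summed RPKM of the 81 forkhead transcripts in each of the 7 libraries, with the L and S copies of 6 genes in colour and all other members in grey. The dorsal bars reach 778 to 789 RPKM and the ventral bars 311 to 339 RPKM, and foxa4 fills most of every bar except those of ventral lips 2 and 3.

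Of the 81 transcripts, 6 were listed at 0 in all 7 libraries (foxj2.1, Xetrov90017356m.S matched to FOXJ2, both copies of foxl1 and both copies of LOC100488925 matched to FOXL1). The other 75 were above 0 in a lip library, and 32 passed the low-level filter, an average of 1 RPKM or more across the 6 lips, and were tested. The 49 not tested had lip means of at most 0.967 RPKM. The filter can be passed through 1 group alone, and 5 tested members had a mean under 1 RPKM in the other group (foxc2.L, foxd3.L, foxd3.S, foxi1.S and foxj1.L). The members with the highest lip means were foxa4.L (196 RPKM) and foxa4.S (165 RPKM), then foxh1.L (31.1), foxi2.L (21.6), foxi2.S (13.9), foxh1.S (12.1), foxi1.L (11.1), foxr1.L (8.91), foxn2.S (6.87) and Xelaev18039523m, matched to FOXN3 (6.50). Whether a level falls through fewer cells that make a transcript or less of it per cell cannot be told apart in such bulk samples.

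Dorsal and ventral lips were compared to find forkhead genes that mark the organizer or the opposite side. Without the block, 2 of the 32 tested members were higher in dorsal lips, both copies of foxd3, and 0 in ventral lips. Of all 16514 tested transcripts 0.248% were called dorsal and 0.0787% ventral, 0.327% together (limma, Benjamini-Hochberg adjusted p under 0.05). At an unadjusted p under 0.05 the counts were 5 dorsal and 3 ventral members, where 515 of all 16514 transcripts (3.12%) passed in either direction. With limma voom on recovered reads 2 and 0 members were called, beside 39 of all transcripts (0.236%). With the block 6 members were higher in dorsal lips (foxd3, foxa4 and foxj1, both copies of each) and 5 in ventral lips (foxi1.S, foxc1.S, foxc2.L, foxh1.L and foxi2.L), against a background of 2.37% dorsal and 2.34% ventral. Together these 11 are 34.4% of the tested members, beside 4.71% of all transcripts. They include the 5 members that passed the filter through 1 group alone (foxc2.L, foxd3.L, foxd3.S, foxi1.S and foxj1.L). The excess over the share of all transcripts was not tested. The values of the 3 dorsal and 3 ventral lips did not overlap for 5 members that were higher dorsally and 4 that were higher ventrally, 28.1% of the 32 beside 6.9% of all tested transcripts (3.09% dorsally and 3.81% ventrally). Among these were foxd3.L, foxd3.S, foxi1.S and foxj1.L, which passed the filter through 1 group alone. That favours separate groups, and the excess over 6.9% was not tested either. The median difference of log2(RPKM + 0.5), dorsal minus ventral, was -0.15 over the 32 members and -0.053 over all tested transcripts.

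The blocked calls depended on the libraries used, among the members and among all transcripts. With the block and without dorsal lip 2 or ventral lip 2, 2 dorsal and 2 ventral members were called (both foxd3 copies, foxi1.S and foxh1.L), and without dorsal lip 3 or ventral lip 3 the calls were both foxd3 copies and foxi1.S. Of all transcripts 181 and 188 were called in the first pair of fits and 74 and 82 in the second, in place of 777. Without dorsal lip 1 the members' counts were 5 and 6, with 1550 of all transcripts called (9.39%), and without ventral lip 1 they were 6 and 6, with 1614 called (9.78%). In experiments 2 and 3 alone without the block, 5 dorsal members (foxd3 and foxa4, both copies, and foxj1.S) and 3 ventral members (foxi1.S, foxi1.L and foxc1.S) passed, with 2.72% and 1.46% of all transcripts called there, 4.18% together. The members foxj1.L and foxc2.L fell under the filter in that subset.

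**Figure D2:**
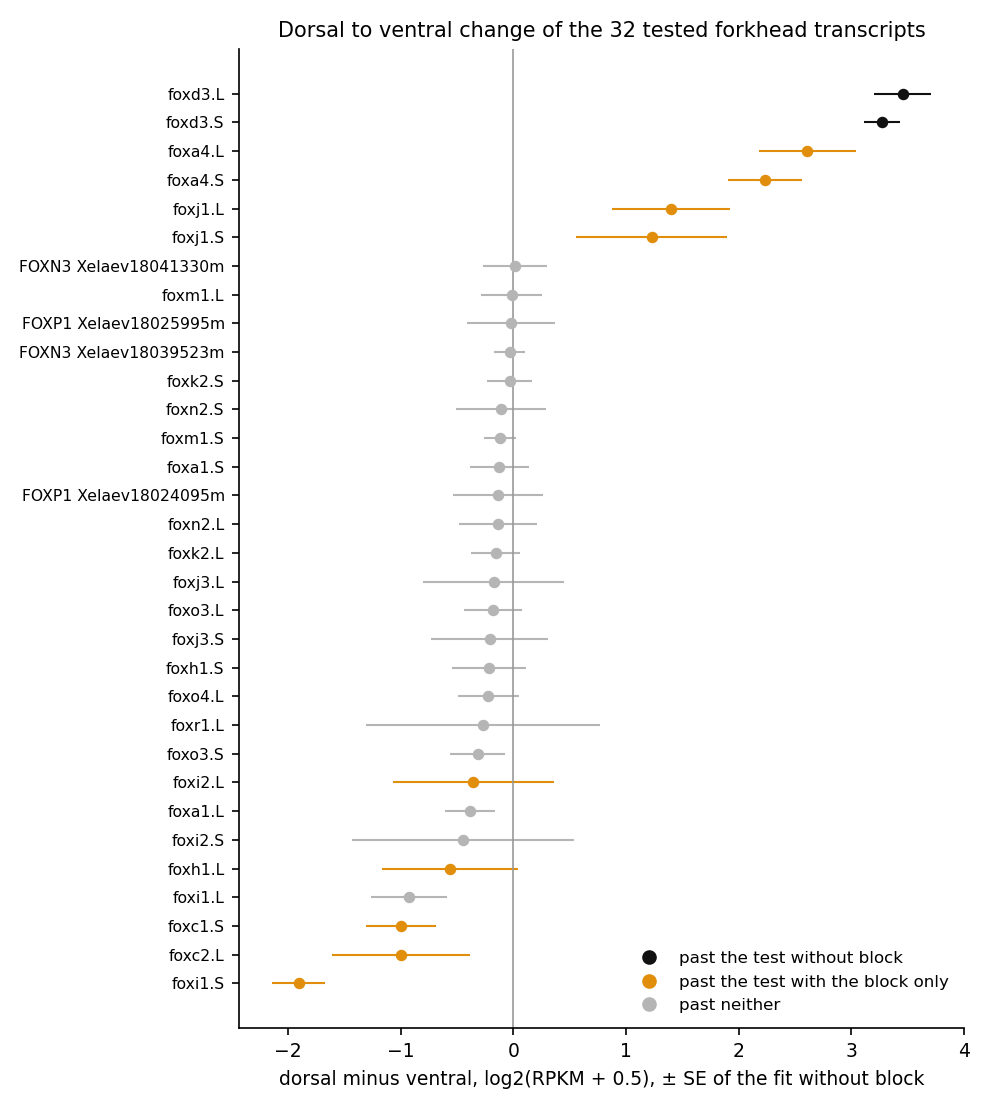
Dorsal minus ventral difference of the 32 tested forkhead transcripts on the log2(RPKM + 0.5) scale, with the standard error of the fit without the block. Both foxd3 copies (black) passed without the block, 9 more members (orange) passed with it, and the 21 others (grey) lay between -0.93 and 0.014.

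The gene foxd3, a repressor that works through Groucho corepressors and is expressed in the organizer before it marks the neural crest, had the largest dorsal excess of the tested members. Its L copy stood at 13.6, 7.77 and 13.1 RPKM in dorsal lips 1 to 3, at 0.617, 0.482 and 0.593 RPKM in ventral lips 1 to 3 and at 1.75 RPKM in the whole embryo. Its S copy stood at 10.7, 8.99 and 11.0 RPKM in dorsal lips, at 0.669, 0.573 and 0.580 RPKM in ventral lips and at 1.5002 RPKM in the whole embryo. Every dorsal value lay far above every ventral one, and the whole embryo stood between them, nearer to the ventral lips. Group means were 11.5 ± 3.25 against 0.564 ± 0.0720 RPKM (SD, n = 3) for foxd3.L, a ratio of 20.4, and 10.2 ± 1.09 against 0.607 ± 0.0539 RPKM for foxd3.S, a ratio of 16.9. The log2 differences were 3.46 (SE 0.252, limma adjusted p = 0.00711) for foxd3.L and 3.27 (SE 0.159, limma adjusted p = 0.00122) for foxd3.S. The ventral levels rest on 14 to 23 reads per library and copy. The call of foxd3.L without the block was lost when dorsal lip 3 (limma adjusted p = 0.0799), ventral lip 2 (0.0665) or ventral lip 3 (0.0756) was left out.

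**Figure D3:**
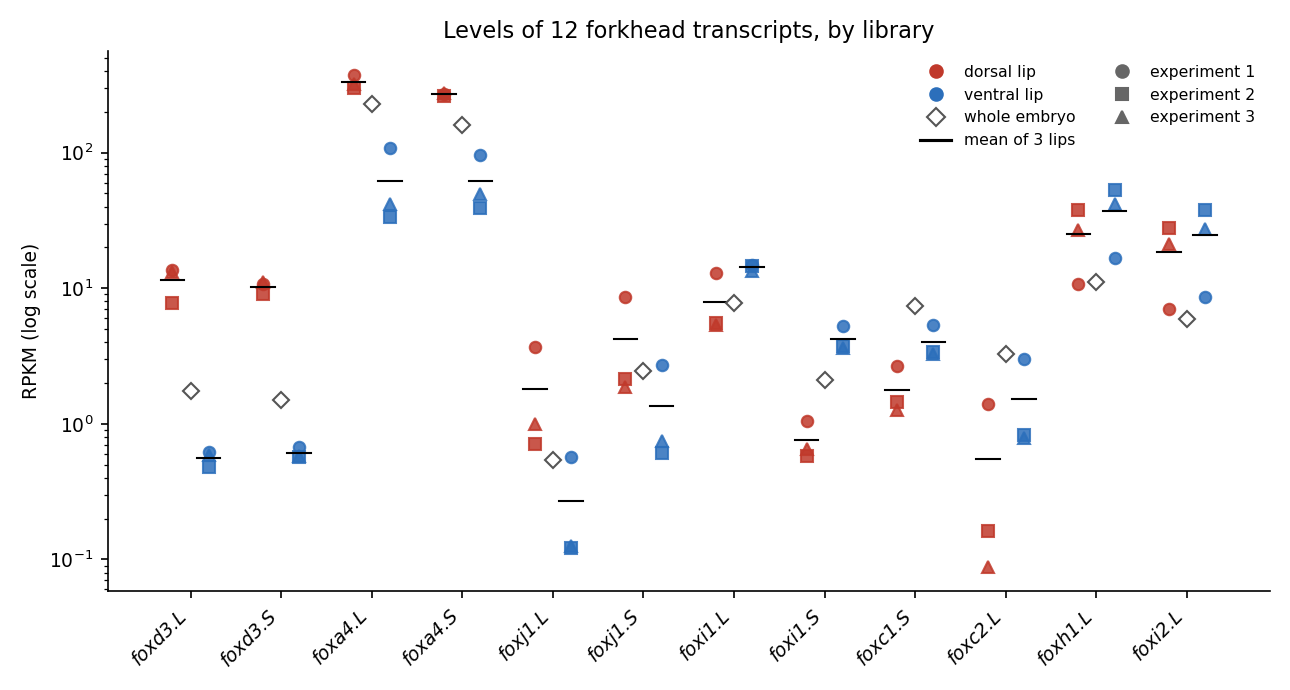
RPKM on a log axis of 12 forkhead transcripts in the 3 dorsal lips (red), 3 ventral lips (blue) and the whole embryo (open diamonds), with marker shape for the experiment and bars for the mean of 3 lips. The foxd3 copies separate without overlap in every experiment, while the foxh1.L and foxi2.L values of experiment 1 lie under those of experiments 2 and 3 in both lips.

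The most abundant forkhead gene, foxa4, is a FoxA gene of the frog organizer, notochord and floor plate. Its L copy stood at 372, 301 and 321 RPKM in dorsal lips 1 to 3 and at 108, 33.7 and 41.9 RPKM in ventral lips, with 229 RPKM in the whole embryo. Its S copy stood at 273, 260 and 276 RPKM in dorsal lips and at 95.7, 39.0 and 49.2 RPKM in ventral lips, with 160 RPKM in the whole embryo. No ventral value reached a dorsal one, and for both copies ventral lip 1 was the highest of the ventral lips. This was not particular to foxa4. The 16 organizer marker transcripts summed to 96.4 RPKM in ventral lip 1 and to 20.8 and 27.004 RPKM in ventral lips 2 and 3. Not every marker shared this, as dkk1.L stood at 0.727, 1.91 and 2.13 RPKM in ventral lips 1 to 3. Why ventral lip 1 held more of foxa4 and of the marker sum was not tested. The log2 differences were 2.61 (SE 0.433, limma adjusted p = 0.166, blocked 0.0113) for foxa4.L and 2.23 (SE 0.325, limma adjusted p = 0.108, blocked 0.0124) for foxa4.S. Within experiments 1, 2 and 3 the difference was 1.78, 3.14 and 2.92 for foxa4.L and 1.505, 2.72 and 2.48 for foxa4.S, smallest in experiment 1. Leaving out ventral lip 1 gave limma adjusted p = 0.00214 for each copy without the block, with log2 differences of 3.12 and 2.61. Beside this, endoderm markers also differed with side when blocked. Of 12 tested transcripts of that list 5 were higher in dorsal and 0 in ventral lips, its summed level was 339 to 444 RPKM in dorsal and 242 to 415 RPKM in ventral lips, 2 of its 20 transcripts, both matched to A2M, were at 0 in all lips, and their part in the foxa4 difference was not tested.

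The other FoxA genes were low in the lips. The endodermal factor foxa1.L stood at 1.703, 1.40 and 0.889 RPKM in dorsal lips and 1.98, 1.87 and 1.705 RPKM in ventral lips. Its ventral values lay above its dorsal ones, if barely for dorsal lip 1 and ventral lip 3, but it passed neither test (log2 difference -0.39, SE 0.222, limma adjusted p = 1, blocked 0.128). Its copy foxa1.S overlapped between the lips (-0.12, limma blocked adjusted p = 0.753). The node and floor plate gene foxa2 was under the filter, at 0.164 to 0.565 RPKM in the lips for foxa2.L and at 0.137, 0.267 and 0.285 RPKM in the dorsal lips and 0.318, 0.833 and 1.02 RPKM in the ventral ones for foxa2.S. The low level of foxa2.S was thus higher in each ventral lip, without a call when all transcripts above 0 were tested with the block (limma adjusted p = 0.171). That fit also missed both foxa4 copies (limma adjusted p = 0.0939 and 0.0969), so a miss in it does not show that levels were alike.

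The gene foxj1, the main regulator of motile cilia, was the third gene whose copies were called dorsal with the block. Its L copy stood at 3.69, 0.708 and 0.999 RPKM in dorsal lips 1 to 3 and at 0.568, 0.120 and 0.125 RPKM in ventral lips, with 0.543 RPKM in the whole embryo. Its S copy stood at 8.62, 2.13 and 1.87 RPKM in dorsal lips and at 2.71, 0.607 and 0.747 RPKM in ventral lips, with 2.46 RPKM in the whole embryo. Dorsal exceeded ventral in each experiment for both copies, yet for foxj1.S ventral lip 1 was above dorsal lips 2 and 3, so that its groups overlap. The log2 differences were 1.40 (SE 0.527, limma adjusted p = 1, blocked 0.0326) for foxj1.L and 1.23 (SE 0.668, limma adjusted p = 1, blocked 0.0127) for foxj1.S. Without dorsal lip 1 the foxj1.S difference was 0.605, and foxj1.L fell under the filter. Levels in experiment 1 were 4.36 times those in experiments 2 and 3 for foxj1.L and 4.23 times for foxj1.S. The other FoxJ gene above the filter, foxj3, did not pass (blocked limma adjusted p = 0.297 for foxj3.L and 0.218 for foxj3.S).

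On the ventral side, foxi1.S had the largest difference of the tested members. Foxi1 in the frog activates genes of the surface ectoderm and later of epidermal ionocytes, and its RNA is switched on by Foxi2, which is present as a maternal RNA. The S copy of foxi1 stood at 1.05, 0.577 and 0.649 RPKM in dorsal lips 1 to 3, at 5.30, 3.74 and 3.62 RPKM in ventral lips and at 2.10 RPKM in the whole embryo. The groups did not overlap and the difference was alike in each experiment, -1.90, -1.98 and -1.84 on the log2 scale (-1.91 in all, SE 0.237, limma adjusted p = 0.0606, blocked 0.000715). The L copy stood at 12.9, 5.57 and 5.34 RPKM in dorsal lips and at 14.9, 14.7 and 13.5 RPKM in ventral lips, with 7.83 RPKM in the whole embryo. Here the groups did not overlap either, but dorsal lip 1 came close to the ventral values. The differences within experiments were -0.19, -1.32 and -1.26, and the copy passed in experiments 2 and 3 alone (limma adjusted p = 0.000383) but not over all (-0.93, SE 0.341, limma adjusted p = 1, blocked 0.0892).

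Both foxi2 copies, by contrast, were above the filter with small side differences and large ones between experiments. The level of foxi2.L was 7.03, 27.8 and 21.0 RPKM in dorsal lips 1 to 3 and 8.55, 37.7 and 27.4 RPKM in ventral lips, and that of foxi2.S was 2.61, 16.1 and 15.1 RPKM in dorsal and 3.34, 28.8 and 17.7 RPKM in ventral lips. The ventral lip was higher within each experiment, while the groups overlapped across experiments. The log2 difference was -0.36 (SE 0.714, limma adjusted p = 1, blocked 0.0337) for foxi2.L and -0.45 (SE 0.983, limma adjusted p = 1, blocked 0.107) for foxi2.S. Without the block the sign of foxi2.L depended on single libraries, with 0.21 without dorsal lip 1 and 0.064 without ventral lip 2, and that of foxi2.S turned to 0.34 and 0.15 in the same fits. Beside the FoxI differences, part of the markers of the superficial epithelium and epidermis also differed with side. Of 13 tested transcripts of that list, 1 was higher in ventral lips without the block, and 7 in ventral and 1 in dorsal lips with it. Their summed level was 766 to 829 RPKM in dorsal and 839 to 896 RPKM in ventral lips, 1 of 18 transcripts was at 0 in all lips, and their part in the FoxI differences was not tested.

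The mesodermal subfamily FoxC was higher in ventral lips for part of its copies. The gene foxc1 acts in somite and other mesoderm, and its S copy stood at 2.65, 1.45 and 1.26 RPKM in dorsal lips 1 to 3 and at 5.39, 3.39 and 3.26 RPKM in ventral lips, without overlap (log2 difference -0.999, SE 0.307, limma adjusted p = 0.935, blocked 0.00563). The related foxc2.L stood at 1.41, 0.163 and 0.0881 RPKM in the dorsal lips and 2.99, 0.828 and 0.782 RPKM in the ventral ones (-0.9996, SE 0.611, limma adjusted p = 1, blocked 0.0108). It was not called with voom and the block (limma adjusted p = 0.0525) or with the block and no filter (limma adjusted p = 0.0778), and in the blocked fits that left out 1 library it was not called in 4 and fell under the filter in the other two. Its ventral level was the higher one within each experiment, with differences of -0.87, -1.004 and -1.12, but dorsal lip 1 exceeded ventral lips 2 and 3. The whole embryo held more of both than any lip, at 7.36 RPKM for foxc1.S and 3.28 RPKM for foxc2.L. The partner copies foxc1.L and foxc2.S were under the filter, at 0.544 to 1.38 and 0.272 to 0.833 RPKM in the lips, and overlapped between groups. The visceral mesoderm gene foxf1.S, also under the filter, stood at 0.0734, 0.0642 and 0.0485 RPKM in the dorsal lips and 0.437, 0.785 and 0.928 RPKM in the ventral ones. It was among 3 of the 49 members under the filter whose ventral values were each above each dorsal one. The share of all transcripts under the filter that did so was not computed, so this count says little about the members. There was no call of it among all transcripts above 0 with the block (limma adjusted p = 0.120), a fit that missed foxc1.S as well (limma adjusted p = 0.0556).

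The Nodal effector foxh1, supplied to the egg as a maternal RNA in the frog, was the forkhead gene next in level to foxa4. Its L copy stood at 10.8, 37.9 and 26.9 RPKM in dorsal lips 1 to 3 and at 16.7, 52.6 and 41.7 RPKM in ventral lips, with 11.0 RPKM in the whole embryo. Within each experiment the ventral lip was higher, by 0.60, 0.47 and 0.62 on the log2 scale, while ventral lip 1 lay under dorsal lips 2 and 3. The difference of -0.56 (SE 0.602, limma adjusted p = 1) passed with the block (blocked SE 0.04997, limma adjusted p = 0.00749), and its partner foxh1.S did not (-0.22, blocked limma adjusted p = 0.0904). Without the block the size of the foxh1.L difference rested on single libraries, at -0.058 without dorsal lip 1, -0.24 without ventral lip 2, -0.94 without dorsal lip 2 and -1.05 without ventral lip 1, and that of foxh1.S turned to 0.049 without dorsal lip 1. In the authors' deposited table, which rests on experiments 2 and 3, the adjusted p of foxh1.L was 0.833.

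The cell cycle, metabolic and signalling subfamilies K, M, N, O and P had 13 tested members and none passed either test. Their lip means lay between 1.28 and 6.87 RPKM, their log2 differences between -0.32 and 0.014, and the smallest blocked limma adjusted p was 0.0802, for foxo3.S. Foxm1, which drives genes of mitosis, had 5.42 ± 0.216 RPKM of foxm1.S dorsally and 5.94 ± 0.607 RPKM ventrally (SD, n = 3). FoxO factors, restrained by insulin signalling, were represented by foxo3 and foxo4. The S copy of foxo3 stood at 3.34 ± 0.7002 against 4.31 ± 1.06 RPKM and foxo4.L at 3.06 ± 0.683 against 3.71 ± 1.12 RPKM. The repressor transcript Xelaev18039523m, matched to FOXN3, had 6.43 ± 0.578 against 6.58 ± 0.448 RPKM. The remaining tested member, foxr1.L, stood at 1.55, 11.7 and 9.87 RPKM in the dorsal lips and 1.56, 15.05 and 13.7 RPKM in the ventral ones (-0.27, SE 1.04, limma adjusted p = 1, blocked 0.177). Dorsal lip 1 and ventral lip 1 held nearly equal, low levels of it, and it passed as ventral with the block in experiments 2 and 3 alone (-0.40, limma adjusted p = 0.0185), where 9.96% of all transcripts were called, and in the blocked fits without dorsal lip 1 or ventral lip 1. Its sign without the block turned to 0.55 without dorsal lip 1, 0.24 without ventral lip 2 and 0.17 without ventral lip 3.

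Members under the filter included genes of the nervous system and of later organs. Of the 49, 8 reached 1 RPKM in some library and 11 had at most 5 recovered reads in each. The neural gene foxb1.L stood at 2.94, 0.441 and 0.541 RPKM in dorsal lips 1 to 3 and at 0.322, 0.0767 and 0.0381 RPKM in ventral lips, and foxb1.S at 1.47, 0.279 and 0.201 against 0.133, 0.0678 and 0.126 RPKM. All dorsal values of both copies were above all ventral ones, with dorsal lip 1 the highest, and neither was called among all transcripts above 0 with the block (limma adjusted p = 0.208 and 0.370). Among the 49 the groups did not overlap for 6 members higher dorsally and 3 higher ventrally. The share over all transcripts under the filter was not computed. The multiciliated cell gene foxn4.L was highest in ventral lip 1 at 2.58 RPKM, with 0.789, 0.509 and 0.377 RPKM in dorsal lips and 0.816 and 0.614 RPKM in ventral lips 2 and 3. In the same test of all transcripts above 0 with the block, 3 of the 75 members above 0 passed, namely both foxd3 copies and foxi1.S. Of all 34738 transcripts 120 passed (0.345%). Members called by the blocked fit with the filter, both foxa4 copies and foxc1.S among them, were missed there.

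In the RefSeq annotation of assembly v10.1, which is not the build of the files and was used for names and neighbours alone, 60 of the 65 member symbols with an L or S suffix were found. There foxc1 lies beside foxf2, with foxq1 next to foxf2, and foxc2 lies beside foxl1, in both the L and the S subgenome. The neighbours did not share the level of the FoxC copies. Beside the 1.26 to 5.39 RPKM of foxc1.S in the lips, foxf2.S reached at most 0.146 RPKM and foxq1.S at most 0.0324 RPKM, and foxl1.L beside foxc2.L was listed at 0.

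The whole embryo, a single library that includes both lips, served as a reference for the lips relative to the animal as a whole. It was set against dorsal lip 1 and ventral lip 1 for the 31 members with an average of 1 RPKM or more across these 3 libraries, as a description with no replicate. The whole embryo lay between the lips for 38.7% of them, above both for 32.3% and below both for 29.0%, where 24.5%, 43.7% and 31.8% of all 15916 transcripts did. The only member over 2-fold apart from both lips on the log2(RPKM + 0.5) scale was foxa1.L, at 6.17 RPKM against 1.70 and 1.98 RPKM, beside 0.44% of all transcripts over 2-fold above and 0.207% over 2-fold below both. Its partner foxa1.S stood at 2.75 RPKM against 0.809 and 1.52 RPKM. With a fold of 3 as the limit the count was 0.

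Some members differed over 2-fold between experiments, which was not set against their difference between lips. Over 2-fold lower in mean log2 level in the lips of experiment 1 than in those of experiments 2 and 3 were 6 of the 32 tested members, 18.8%, beside 13.1% of all tested transcripts. They were foxh1.L, both copies of foxi2 and of foxj3, and foxr1.L, whose mean level was 1.56 RPKM in experiment 1 and 12.6 RPKM in experiments 2 and 3. Over 2-fold higher in experiment 1 were foxc2.L, foxj1.L and foxj1.S, 9.38% of the members beside 5.17% of all transcripts. Whether the members' shares exceed those of all transcripts was not tested. The whole embryo library, also of experiment 1, held foxr1.L at 2.01, foxi2.L at 5.97 and foxi2.S at 2.02 RPKM, near the lips of its own experiment.

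**Figure D4:**
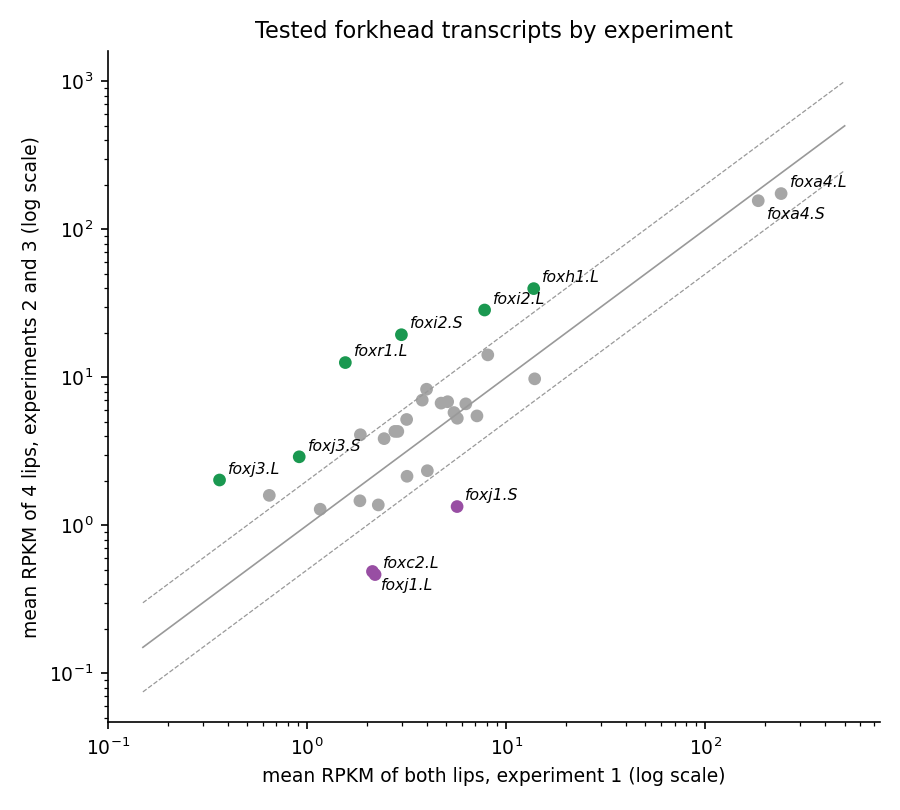
Mean RPKM of the 32 tested forkhead transcripts in both lips of experiment 1 (x axis) and in the 4 lips of experiments 2 and 3 (y axis), both on log axes, with the line of equality and dashed lines at 2-fold. The 6 members over 2-fold lower in experiment 1 in mean log2 level (green) lie above the upper dashed line and the 3 that were over 2-fold higher (purple) lie under the lower one.

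The L and S copies of forkhead genes were compared in their change between the lips and in their level. Of 33 genes with both copies listed, 12 had both above the filter. The sign of the dorsal to ventral difference was the same in both copies for all 12 pairs as deposited, and for 10 after TMM scaling, where the small differences of foxk2 and foxm1 took opposite signs. The share of same signs over all pairs was not computed. By sign, 25 of the 32 tested members were lower in dorsal lips, and 17 of the 32 turned sign without some single lip library. The shares of all tested transcripts beside these counts were not computed. The median difference over all transcripts was -0.053 as deposited and 0.0092 after TMM scaling. Where most members share a sign, like signs in both copies say little about a pair. No pair differed in its dorsal to ventral change without or with the block (limma, 0 of 12, where 0% and 2.21% of all 3301 tested pairs were called), and 2 pairs without and 3 with the block had an unadjusted p under 0.05, beside 102 (3.09%) and 639 (19.4%) of all pairs. In experiments 2 and 3 alone 3 pairs differed, foxa1, foxa4 and foxi1 (limma adjusted p = 0.0336, 0.0289 and 0.0309), with 4.11% of all pairs called there. For foxi1 the ventral excess was larger in the S copy, by 0.98 (SE 0.246, limma adjusted p = 0.560) over all lips and by 0.62 in experiments 2 and 3.

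In level, 7 of the 12 pairs differed, 58.3%, beside 80.4% of all pairs (limma on the log2 difference of L and S over the lips), and 43.4% of all pairs passed with the L copy higher. The L copy was the higher one in foxi1 (log2 difference 2.16, SE 0.123, limma adjusted p = 1.32e-05), foxh1 (1.18, SE 0.151, 0.000513) and foxi2 (0.79, SE 0.150, 0.00320), in 7 of 7 libraries each. The S copy was the higher one in foxm1 (-1.53, SE 0.135, limma adjusted p = 8.94e-05), foxj1 (-1.05, SE 0.122, 0.000327), foxj3 (-0.53, SE 0.0784, 0.00104) and foxn2 (-0.18, SE 0.0596, 0.0324), also in 7 of 7 libraries each. The copies of foxd3, foxk2 and foxo3 had differences of 0.034 (SE 0.0824), -0.055 (SE 0.0508) and -0.0073 (SE 0.0466), and those of foxa4 and foxa1 had 0.10 (SE 0.0762) and 0.26 (SE 0.141). With the block foxa4 passed as well (limma adjusted p = 0.0215), where 93.1% of all pairs passed. Levels per length rest on the gene models, whose recovered lengths differed by over 1.5 times for 6 of the 12 pairs. They were 1326 bases for foxm1.L and 12119 for foxm1.S, 2137 for foxn2.L and 7973 for foxn2.S, and 6973 for foxj3.L and 2245 for foxj3.S. For foxj3 the direction turned with the length, since foxj3.L held 1906 reads over the 6 lips and foxj3.S held 940. How reads that fit both copies were assigned is not given in the sources used here.

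**Figure D5:**
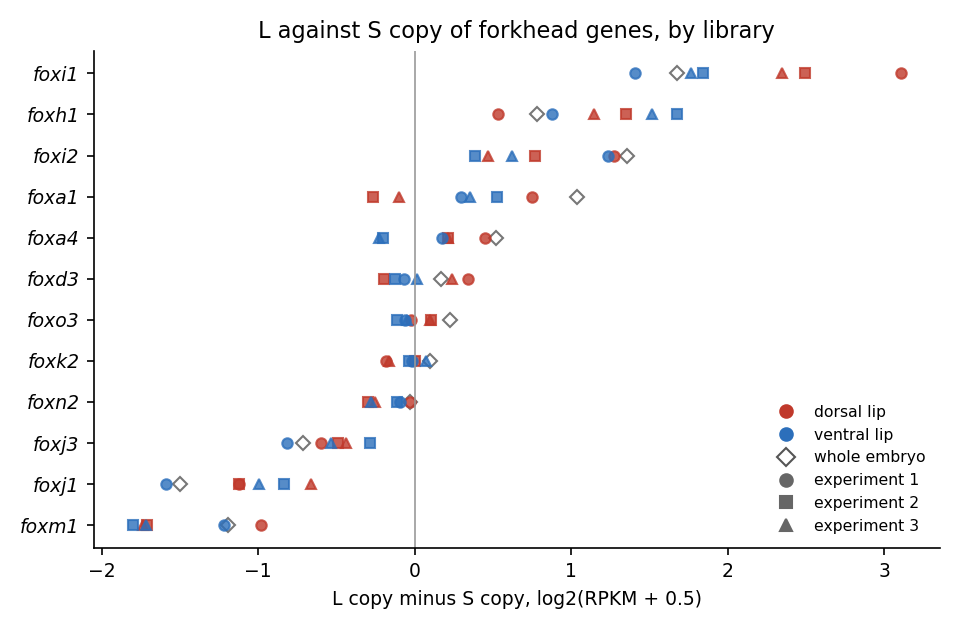
Level of the L copy minus that of the S copy on the log2(RPKM + 0.5) scale for the 12 forkhead genes with both copies tested, in each dorsal lip (red), ventral lip (blue) and the whole embryo (open diamonds), with marker shape for the experiment. The 7 libraries lie to the right of 0 for foxi1, foxh1 and foxi2 and to the left of 0 for foxn2, foxj3, foxj1 and foxm1.

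The authors' own lists hold a part of these members, which are 81 of all 44421 transcripts. Whether a list holds more of them than that share was not tested. In the authors' deposited table of dorsal transcripts, 5 of 315 entries were forkhead transcripts, foxd3.L, foxd3.S, foxa4.L, foxa4.S and foxj1.S, with dorsal to ventral ratios of 19.4, 17.4, 8.22, 6.08 and 2.96. In the authors' deposited table of ventral transcripts they were 3 of 94, foxi1.S, foxi1.L and foxc1.S, with ventral to dorsal ratios of 6.004, 2.58 and 2.46. The authors' deposited table of all transcripts gives adjusted p of 2.19e-05 for foxj1.L and 2.12e-09 for foxc2.L, which are on neither list. These values rest on experiments 2 and 3, part of the same libraries as the tests above. In the authors' deposited table of coefficients to chordin over 26 samples, including kinds not analysed here, foxa4.L ranked 10 of 40499 entries with 0.827 and foxa4.S ranked 13 with 0.816. In the authors' deposited table of coefficients to the ventral gene bambi, the dorsally higher foxj1.S and foxj1.L had 0.652 and 0.631, above the 0.519 of the ventrally higher foxi1.S, and foxn4.L had 0.730. The ventrally higher foxc1.S had 0.0668 in the authors' deposited ventral signature. The authors' deposited injury table of transcripts higher in both lips than in the whole embryo held 1 forkhead transcript among 744, foxe1.L, with 3 reads in each lip of experiment 1 and 1 read in the whole embryo.

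Genes that work with forkhead factors were counted from 9 lists in the same tests, to be read against the shares of all transcripts given above. Not every listed symbol was found among the transcripts. Found were 3 of 6 symbols of the Groucho family, 19 of 34 of the Foxh1 and Nodal list and 14 of 18 listed with FoxD. The share found was higher in the other lists. Of the ventral marker symbols used above, 5 of 8 were found. Organizer and neural genes listed with FoxD had the most dorsal calls of the 9 lists. Of 27 tested transcripts 10 passed as dorsal, or 18 when blocked, and 0 as ventral in either fit. Among those called were zic1.S and transcripts of chrd and gsc. This list shares members, chrd and gsc among them, with the organizer markers above, so they are not separate observations. Since it was made of organizer and neural genes, its dorsal calls follow in part from that choice. The BMP antagonist nog.L of this list stood at 31.3, 41.8 and 44.6 RPKM in the dorsal lips and 0.185, 0.156 and 0.200 RPKM in the ventral ones. Among Foxh1 partners and Nodal pathway genes 5 of 39 tested transcripts passed as dorsal, or 9 when blocked, and 0 as ventral. The 5 were both gsc copies, counted with FoxD as well, and 3 transcripts matched to NODAL. Of 20 tested transcripts listed as partners of FoxA and of endoderm, 3 passed as dorsal, or 11 when blocked, and 0 as ventral. The 3 were hhex.L and 2 transcripts matched to OTX2, which were also counted among the organizer markers and the genes listed with FoxD. Of the 12 tested transcripts of the endoderm markers, 0 passed without the block. The level of hhex.L, a homeobox gene of anterior endoderm, was 36.3, 36.5 and 38.0 RPKM in the dorsal lips and 2.72, 0.571 and 1.01 RPKM in the ventral ones. The secreted head inducer cer1.L of that list had 47.5, 12.04 and 11.9 RPKM in the dorsal lips and 1.81, 0.0167 and 0.0964 RPKM in ventral lips (limma adjusted p = 0.191, blocked 4.39e-05).

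Epidermal and ionocyte genes listed with Foxi1 were the list with the most ventral calls. This list shares members, dlx5 among them, with the superficial epithelium and epidermis markers above, so they are not separate observations. Of 26 tested transcripts, 1 was higher in ventral lips without the block, the homeobox copy dlx5.S, and 12 in ventral and 2 in dorsal lips with it. Its partner dlx5.L stood at 3.03, 1.64 and 1.45 RPKM in the dorsal lips and 24.6, 11.3 and 12.8 RPKM in the ventral ones (limma adjusted p = 0.0914, blocked 0.000434), without overlap. Of 17 tested transcripts of mesoderm genes listed with FoxC and FoxF, 2 were higher in dorsal and 4 in ventral lips with the block. Without it 0 were called (4 dorsal and 5 ventral at an unadjusted p under 0.05). The ventral ligand bmp4.L was one of the 4, at 7.63, 6.62 and 6.70 RPKM in the dorsal lips and 12.1, 11.1 and 12.6 RPKM in the ventral ones (log2 difference -0.74, limma adjusted p = 0.179, blocked 0.00925).

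The lists of corepressors, multiciliated cell genes, FoxO regulators and mitotic genes held 0 calls each without the block. Of 8 Groucho family corepressor transcripts, the partners of Foxd3, 0 passed with the block as well and 0 had an unadjusted p under 0.05 without it. Of 13 multiciliated cell transcripts, the ventrally higher regulator rfx2.S passed with the block (limma adjusted p = 0.0497), and 1 had an unadjusted p under 0.05 without it. Of 33 transcripts of FoxO regulators, 1 passed with the block, a transcript matched to IRS2 whose level was 5.77 ± 0.0657 RPKM dorsally and 2.95 ± 0.752 RPKM ventrally (SD, n = 3, limma adjusted p = 0.0284), and 1 had an unadjusted p under 0.05 without it. Of 30 mitotic transcripts listed with Foxm1, 2 in each direction passed with the block, 13.3% of the list beside 4.71% of all transcripts, and 2 had an unadjusted p under 0.05 without it, where 515 of all 16514 transcripts did. The phosphatase cdc25b.S was higher in dorsal lips (18.4 ± 1.08 RPKM, ventral 10.9 ± 1.25 RPKM, with the block limma adjusted p = 0.0259). The cyclin ccnb2.L was higher in ventral lips (192 ± 51.7 RPKM, dorsal 131 ± 20.6 RPKM, with the block limma adjusted p = 0.0304).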

How the data were processed

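The study sequenced poly(A) RNA of Xenopus laevis at stage 10.5 from 1 whole embryo sample, 3 dorsal lip samples and 3 ventral lip samples, as single-end 100-base reads. The RPKM values were deposited by the authors per transcript, on JGI 9.1 gene models per the file headers. The submitters' processing notes name TopHat2 2.09 and DESeq without a role for each. Which program counted reads, whether strand was used and what was done with reads that fit several transcripts is not given in the sources used here, so reads of 1 copy could sit on the other. The adjusted p-value and the ratio in the dorsal and ventral lists are deposited by the authors and rest on experiments 2 and 3, per the file headers. The coefficient to chordin or bambi is a score deposited by the authors.

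From the RPKM steps each transcript was given the smallest length that made its reads whole in every library. Such a length, and reads with it, was found for 100% of the 35326 transcripts above 0, within 0.001 reads. Whole reads were the rule of choice, so this share is not a separate check. Length and reads can come out too small, above all for transcripts with reads in few libraries. A library's recovered reads total 26438048 to 37999134, so that 1 read on a transcript of 1 kilobase is worth 0.0257 to 0.0369 RPKM. On log2(RPKM + 0.5), limma 3.58.1 (R 4.3.3) fitted linear models with trended, two-sided moderated tests to the 16514 transcripts averaging 1 RPKM or more in the 6 lips, with Benjamini-Hochberg adjustment over all of them and a threshold of 0.05. This scale understates the change of low transcripts. Groups and experiment numbers come from the sample titles. To see whether experiment numbers pair the lips, each library's deviation from its group mean was correlated with that of the other side over transcripts. Lips of the same experiment gave 0.926, 0.881 and 0.819, and experiments 2 and 3 gave 0.748 and 0.839 when crossed. Ventral lip 3 thus followed dorsal lip 2 more closely than dorsal lip 3. The check sets experiment 1 apart but cannot show that the lips of experiments 2 and 3 pair by number. The block takes the pairs from the numbers in the sample titles. L and S copies were compared by the same model on the difference of their log2 values over 3301 pairs.

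Transcripts named are those past the dorsal to ventral test without or with the block, the 10 members with the highest lip means, those over 2-fold higher or over 4-fold lower in the whole embryo than in both lips of experiment 1, pairs past a copy test, and in the companion lists those past the test without the block or up to 4 by the smallest blocked p. Others named were chosen after their values were seen. The members, the companion lists and the marker lists were chosen with earlier results of these data known. Alternatives tried were the block, pseudocounts of 0.1 and 1, no filter, TMM scaling, voom on recovered reads, experiments 2 and 3 alone, and leaving out each lip library. The fits were run on simulated data that held no difference between experiments. That run does not show how the fits behave where an experiment lies apart, as here. Figures were drawn with matplotlib 3.10.9.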

Additional observations from a re-analysis of the deposited data

How the results depend on the processing

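The 2 dorsal and 0 ventral forkhead calls without the block were the same with pseudocounts of 0.1 and 1, no filter, TMM scaling and voom on recovered reads. With the replicate block, which pairs the lips of an experiment, they became 6 and 5, in experiments 2 and 3 alone 5 and 3, and with voom and the block 6 and 4, without foxc2.L. Calls over all transcripts moved as well, from 54 to 777, 689 and 944. Alternatives chosen after seeing the data were no filter with the block (2 and 1, 120 of all 34738), experiments 2 and 3 with the block (5 and 6, 1642 of all 16479), and leaving out each lip library with the block, which gave 2 to 6 dorsal and 1 to 6 ventral calls (74 to 1614 over all transcripts). Without the block, leaving out each library gave 1 to 4 dorsal and 0 ventral calls (21 to 140 over all transcripts). The pairs of copies that differed in their dorsal to ventral change numbered 0 and became 3 in experiments 2 and 3 alone, and with the block stayed at 0. The pairs that differed in level numbered 7, 8 with the block and 15 with no filter, which tests more pairs. With a fold of 3 the 1 transcript apart from both lips in the whole embryo became 0. Among the 32 tested members 17 turned sign without some single lip library, all with differences of at most 0.45 in size. The share over all transcripts was not computed. Of the members called in any fit, signs turned for foxi2.L without dorsal lip 1 (0.21) and ventral lip 2 (0.064), and for foxr1.L without dorsal lip 1 (0.55), ventral lip 2 (0.24) and ventral lip 3 (0.17). Over all single libraries left out, foxi2.L ranged from -0.98 to 0.21 and foxr1.L from -1.22 to 0.55. Where leaving out a library leaves an experiment with 1 lip, the blocked fit takes its contrast from the other experiments. Causes of these changes were not tested. The planned quasi-likelihood count test was not run because the deposited values are RPKM.

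Depth limits the low members, since 11 of the 49 members under the filter had at most 5 recovered reads in each library. With 3 lips a group and an experiment that lies apart, the spread without the block is wide, and a miss there does not show that levels were alike.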
